A study of Mus musculus with 4 samples.

Results

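Cxcr4, Ackr3, Cxcl12, Erbb4, Nrg1 and Nrg3 encode the receptors and ligands of a pair of signalling systems that guide migrating interneurons. They were picked by name, 6 genes of the 32285 in the deposited count matrices, and followed cell by cell in e14.5 mouse embryos, in the medial ganglionic eminence (MGE) of the ventral forebrain, where cortical interneurons and several kinds of projection neurons are born. Droplet libraries (10x Genomics) came from MGE of embryos homozygous for a whole-animal St18 null allele, called null here (St18(-/-), 2 libraries), and of their wild-type counterparts (WT, 2 libraries). All embryos had St18 heterozygous parents and a C57/BL6 ICR mix background. Tissue of embryos of one genotype was pooled and dissociated together. How many embryos entered a pool and of which sex is not stated. The study describes the libraries of a genotype as biological replicates. Lists of 4 values give null replicates 1 and 2, then WT replicates 1 and 2.

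CXCL12 is a chemokine that signals through the G-protein-coupled receptor CXCR4, while ACKR3 binds and internalizes the same chemokine and recruits arrestin rather than G proteins. Interneurons leaving the MGE use both receptors to keep to their migratory streams, and Cxcl12 is known to be made by the meninges and by cortical progenitors. ERBB4 is a receptor tyrosine kinase for the neuregulins NRG1 and NRG3, which act as attractants on the route through the lateral ganglionic eminence (LGE) to the cortex. Lhx6, a LIM homeodomain factor, marks MGE-derived neurons, and those that lose the MGE factor Nkx2-1 include the interneurons bound for the cortex.

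After filtering, 18267 cells remained, of which 10897 were neurons and 7089 progenitors by marker genes. Libraries held 3878 to 6631 cells, with a median of 6186 to 9352 unique molecular identifiers (UMIs) per cell. Pairs of libraries shared 4 to 11 cell barcodes, where 2.29 to 4.40 were expected from the numbers of cells, and each pair lay above its own expected number. St18, the zinc finger gene mutated in null embryos, stood at 25.3, 73.0, 45.2 and 57.3 CPM (UMIs per 1000000 UMIs of the cells) in neurons, so that the library labelled null replicate 2 stood above both WT libraries. As the study describes, the allele removes only part of the coding exons and transcript remains in null embryos, though significantly lower in neurons. Null replicate 1 had less St18 than both WT libraries, while the library labelled null replicate 2 went against that order. The counts are of the whole gene, so that St18 checks the labels only in part. Within that library, cells classed as female by their counts held 92.9 CPM and cells classed as male 29.1. Libraries are therefore named by their labels, and differences of the 6 genes between null and WT are given with and without that library. For Erbb4 these classes held 269 and 264 CPM, for Ackr3 98.6 and 109, for Cxcr4 8.21 and 9.78, for Nrg1 18.5 and 15.0 and for Nrg3 7.04 and 3.58. The mix of cells also ran along the genotypes, with 38.5% and 20.8% of neurons male-classed in the libraries labelled null and 62.6% and 58.3% in those labelled WT. Neurons were split by whether a cell held at least 1 Lhx6 UMI after each cell was thinned to 3000 UMIs, which gave 6600 Lhx6-positive and 4297 other neurons. The second group may include cells in which Lhx6 was missed, which was not tested. In the 6 Lhx6-rich clusters 67.6% to 80.5% of cells had an Lhx6 UMI, and neuron clusters 9 and 10 stood at 62.2% and 50.1%. Among progenitors, which were not split by it, Lhx6 was seen in 67.3% of cells of cluster 4, 58.5% of cluster 11 and 47.9% of cluster 8. Progenitor clusters 3, 5 and 7 stood at 4.67%, 21.4% and 21.9%.

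All 6 genes are protein coding, and 3 lie on chromosome 1 (GENCODE M21 annotation, build GRCm38). Erbb4 spans chr1:68032186-69108059 on the minus strand, Ackr3 chr1:90203980-90216751 on the plus strand and Cxcr4 chr1:128588199-128592293 on the minus strand. Cxcl12 lies at chr6:117168535-117181367 on the plus strand. The neuregulin genes are long and on the minus strand, Nrg1 at chr8:31814551-32884029 and Nrg3 at chr14:38368952-39473088. Erbb4 overlaps Gm16076, another counted gene on the same strand, so that the assignment of reads between them is uncertain.

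The promoters of the 3 receptor genes are shown because these genes were detected together in the same cells, as described below. Each is the stretch of 250 bases before the annotated start, 5′ to 3′ on the gene's strand, from RefSeq (GRCm38.p6), which also held Cxcl12 and Nrg3 and so matched 5 of the 6 genes. Capitals mark the letters TATAAA, known as the TATA box, and the MAF half-site TGCTGA, both on either strand. Cxcr4 lies at chr1:128592300-128592549 on the minus strand, Ackr3 at chr1:90203730-90203979 on the plus strand and Erbb4 at chr1:69108060-69108309 on the minus strand.
Cxcr4: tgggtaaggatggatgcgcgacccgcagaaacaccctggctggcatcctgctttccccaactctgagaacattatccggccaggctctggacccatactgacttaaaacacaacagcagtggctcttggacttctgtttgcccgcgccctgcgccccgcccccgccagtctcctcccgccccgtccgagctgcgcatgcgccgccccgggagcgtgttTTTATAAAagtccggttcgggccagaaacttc
Ackr3: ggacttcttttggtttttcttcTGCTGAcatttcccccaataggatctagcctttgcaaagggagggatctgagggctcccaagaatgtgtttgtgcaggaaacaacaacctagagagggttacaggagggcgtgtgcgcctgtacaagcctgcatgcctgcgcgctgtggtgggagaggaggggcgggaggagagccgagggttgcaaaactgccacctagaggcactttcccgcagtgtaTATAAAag
Erbb4: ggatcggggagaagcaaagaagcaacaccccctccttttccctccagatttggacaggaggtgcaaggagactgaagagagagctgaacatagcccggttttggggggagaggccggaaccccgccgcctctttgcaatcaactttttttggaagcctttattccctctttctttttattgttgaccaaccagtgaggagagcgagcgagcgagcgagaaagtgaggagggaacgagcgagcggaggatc
In Cxcr4 the TATAAA lay 30 to 25 bases before the start, with an overlapping match on the opposite strand 32 to 27 bases before it. In Ackr3 it lay 8 to 3 bases before the start, and a TGCTGA lay 228 to 223 bases before it. Cxcr4 held no TGCTGA, while the promoters of Cxcl12 and Nrg3, not shown, held it on the opposite strand. Erbb4 held neither motif, and none of the 3 promoters held TAATTA, the core of many homeodomain sites. Among 32851 promoters of this length, 12.4% held TATAAA on either strand, 16.1% TGCTGA and 4.84% TAATTA. GC content was 61.2% for Cxcr4 and 54.0% for both Ackr3 and Erbb4, with a median of 52.4% over all promoters. A match of letters is a description of the window and not a binding site.

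Ackr3 and Erbb4 were higher in Lhx6-positive than in other neurons, Nrg1 and Nrg3 were lower there, and Cxcr4 did not pass the test. Erbb4 stood at 232, 313, 201 and 217 CPM in Lhx6-positive neurons and at 146, 172, 133 and 162 CPM in the other neurons of the same libraries. The groups did not overlap, and Erbb4 was higher by 0.67 on the log2 scale (SE 0.04, adjusted p = 1.016e-11). Progenitors held 20.4, 36.3, 18.8 and 20.3 CPM of it, and the ratio of neurons to progenitors ran from 7.27 to 9.70. Ackr3 stood at 94.8, 114, 102 and 77.0 CPM in Lhx6-positive neurons and at 65.3, 74.2, 79.8 and 57.3 CPM in other neurons. It was higher in the Lhx6-positive neurons of all 4 libraries, although the lowest of these values lay below the highest of the others, by 0.51 on the log2 scale (SE 0.05, adjusted p = 4.301e-09). In progenitors Ackr3 stood at 40.2, 45.9, 50.2 and 41.0 CPM.

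Cxcr4 counts were low throughout. It stood at 5.87, 8.26, 8.93 and 4.48 CPM in Lhx6-positive neurons, at 6.42, 9.20, 8.05 and 5.18 CPM in other neurons and at 3.28, 4.99, 4.46 and 4.14 CPM in progenitors. The values of the neuron groups overlapped (log2 difference -0.06, SE 0.14, adjusted p = 0.8097), and the ratio ran from 0.866 to 1.11 between libraries. Nrg1 stood at 6.67, 6.47, 4.23 and 5.10 CPM in Lhx6-positive neurons and at 33.6, 35.9, 17.6 and 15.4 CPM in other neurons. Every value of the second group lay above every value of the first (log2 difference -2.21, SE 0.11, adjusted p = 1.809e-13). Nrg3 stood at 4.28, 4.13, 3.17 and 5.98 CPM in Lhx6-positive neurons and at 6.84, 10.1, 4.24 and 9.64 CPM in other neurons. It was lower in the Lhx6-positive neurons of each library, while the groups overlapped through the 4.24 CPM of WT replicate 1 (log2 difference -0.80, SE 0.16, adjusted p = 0.0004338). Nrg3 was scarcer in progenitors, at 0.876 to 1.36 CPM.

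**Figure D1:**
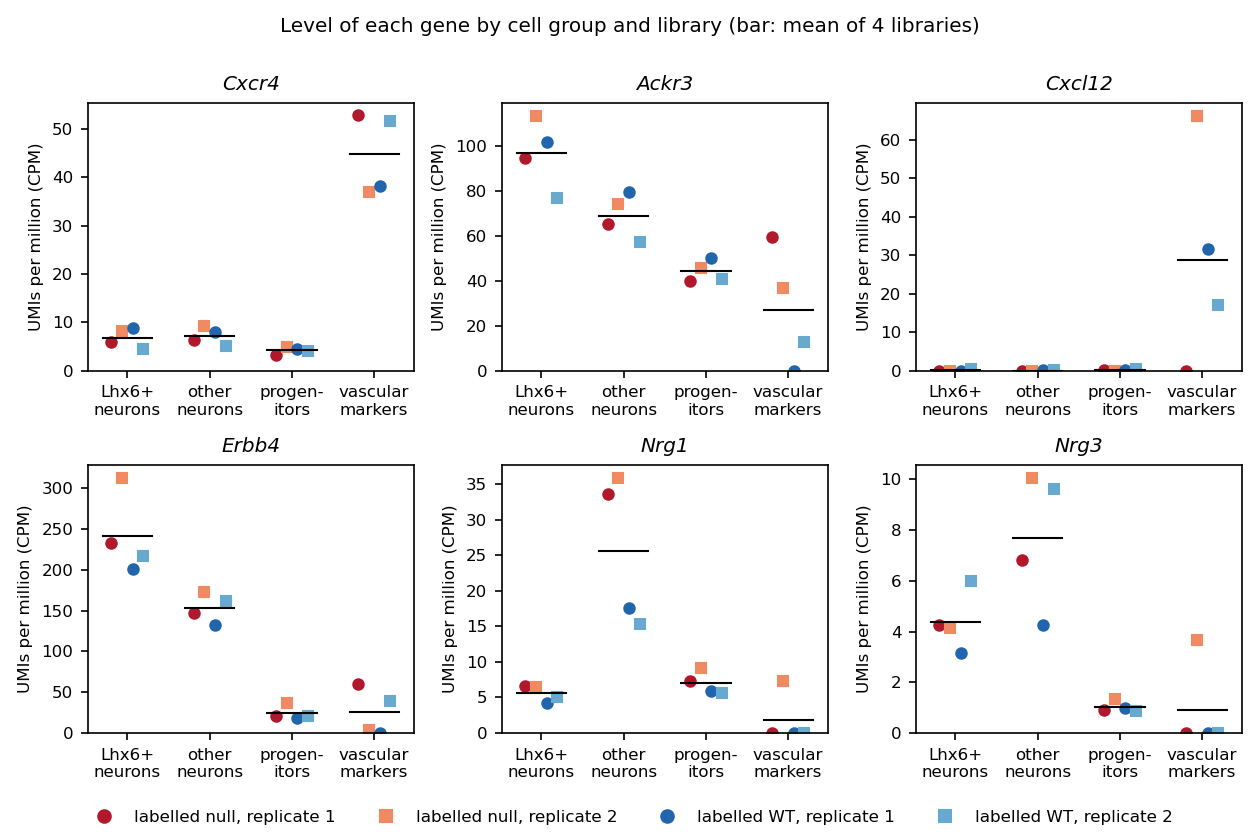
Level of each gene in CPM (vertical axes, each starting at 0) in Lhx6-positive neurons, other neurons, progenitors and the 36 cells with vascular markers, with 1 point per library and a line at the mean of the 4 libraries. The means of Erbb4 and Ackr3 stand highest in Lhx6-positive neurons, those of Nrg1 and Nrg3 in other neurons and those of Cxcr4 and Cxcl12 in the cells with vascular markers, where the library values spread widely.

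These were 4 calls among the 5 genes tested, against 29.5% called of the 12916 genes tested between Lhx6-positive and other neurons, with edgeR's quasi-likelihood test, the library as a block and Benjamini-Hochberg adjustment. Cxcl12 was too low to be tested. With DESeq2 4 of the 6 genes were also called, beside 1719 of 21273 genes in all, and 1 of the 6 had no adjusted p. Without the library as a block the count of genes called was 866, and the call of Nrg3 was lost (adjusted p = 0.104). The size of these differences was not called different between null and WT for any of the 5 genes by an interaction term, with adjusted p = 0.3379 for Erbb4 and 0.5821 for Nrg1, while 24 of the 12916 genes were called.

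Genes of 3 lists that surround these receptors moved in both directions between Lhx6-positive and other neurons. Of the CXCL12 signalling list (G proteins, arrestins, receptor kinases and modulators), 17 of 18 genes were tested, of which 3 were higher and 5 lower, and the median log2 difference was -0.03, beside 0.01 over all genes tested. Gng2, a G-protein gamma subunit, was higher by 0.11 (SE 0.03, adjusted p = 0.002307) and Gnai2, an inhibitory alpha subunit, by 0.13 (adjusted p = 0.005286), as was Itch, the ubiquitin ligase that sorts CXCR4 for degradation, by 0.13 (adjusted p = 0.0183). The lower genes included Mif, an alternative ligand of CXCR4, at -0.41 (adjusted p = 5.793e-11), and the alpha subunits Gnao1 at -0.49 (adjusted p = 2.603e-10), Gnai1 at -0.34 (adjusted p = 0.0001907) and Gnaz at -0.41 (adjusted p = 0.001455). Gng2 in WT replicate 2 and Gnai2 in WT replicate 1 went the other way by CPM.

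Of the ERBB and neuregulin signalling list, 19 of 25 genes were tested, with 3 higher, 3 lower and a median of -0.03. These 6 calls of 19 lie near the 29.5% called over all genes. DESeq2 called 2 genes of this list, 4 of the CXCL12 signalling list and 7 of the other migration receptors, beside 1719 of 21273 genes in all. Erbin, which binds ERBB2, was higher by 0.40 (adjusted p = 1.82e-07), the adaptor Gab1 by 0.44 (adjusted p = 0.0009257) and the ligand Hbegf, which binds ERBB4 and EGFR, by 0.36 (adjusted p = 0.0106). Pik3r1, the regulatory subunit of PI3-kinase, was lower at -0.59 (adjusted p = 1.045e-07), and the synaptic scaffold Dlg4 at -0.20 (adjusted p = 0.003716). Tgfa, a ligand of EGFR, was lower at -1.56 (adjusted p = 0.004209), on 20 UMIs in Lhx6-positive and 40 in other neurons. Of the list of other migration receptors, 14 of 16 were tested, with 4 higher, 5 lower and a median of -0.06. The ephrin receptors Epha4 and Epha5 were higher by 0.59 (adjusted p = 2.245e-14) and 0.10 (adjusted p = 0.005465), the semaphorin co-receptor Plxna4 by 0.75 (adjusted p = 5.053e-13) and the SLIT receptor Robo2 by 0.18 (adjusted p = 0.0001094). The lower genes included the cannabinoid receptor Cnr1 at -1.58 (adjusted p = 1.232e-11), the GDNF co-receptor Gfra1 at -1.53 (adjusted p = 4.524e-08) and the semaphorin receptor Nrp1 at -0.32 (adjusted p = 0.0006715). Drd1, a dopamine receptor of striatal projection neurons, had 1 UMI in Lhx6-positive and 33 in other neurons (adjusted p = 1.892e-05). Epha5 and Nrp1 went the other way by CPM in WT replicate 2.

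At 3000 UMIs per cell, an Erbb4 UMI was found in 41.1%, 47.0%, 36.4% and 37.0% of Lhx6-positive neurons and in 24.9% to 27.7% of other neurons. An Ackr3 UMI was found in 24.0%, 26.3%, 24.4% and 19.7% of Lhx6-positive neurons, in 16.1% to 19.5% of other neurons and in 11.2% to 14.2% of progenitors. Cxcr4 was seen in 1.58%, 2.09%, 2.01% and 1.63% of Lhx6-positive and in 1.55% to 2.66% of other neurons. Erythroid cells, which should lack these genes and were thinned to the same depth (median 11390 UMIs before thinning), had no Cxcr4 or Ackr3 UMI in any library, and an Erbb4 UMI in 2.22% of cells in null replicate 1 only. Droplets of under 100 UMIs, which hold free RNA, carried 29.4 to 62.8 CPM of Ackr3, 38.3 to 59.0 of Erbb4 and 3.67 to 12.8 of Nrg1. They carried 2.96 to 5.77 CPM of Cxcr4, on 6, 12, 9 and 11 UMIs, and 1.39 to 4.72 of Nrg3. The levels of Cxcr4, Ackr3 and Nrg1 in progenitors and of Nrg1 in Lhx6-positive neurons lay within the range of these droplets over all libraries, and those of Erbb4 and Nrg3 in progenitors below it. Erbb4 differed among progenitor clusters, with means of 53.8 CPM in cluster 4, 56.5 in cluster 8 and 5.15 to 20.4 in the others. The droplets held more Ackr3 and Erbb4 in both libraries labelled null than in both labelled WT. Their Cxcr4 level was lower in both null libraries, but on counts too few to order the libraries. Beside droplets of the same library, Ackr3 in progenitors was lower in both null and higher in both WT libraries. The 12.8 CPM of Nrg1 was of null replicate 1 alone. The bearing of free RNA on differences between null and WT was not tested. Lhx6-positive neurons overlapped the droplet range over all libraries for Cxcr4 and Nrg3. So did, in other neurons, the 4.24 CPM of Nrg3 in WT replicate 1, the 5.18 CPM of Cxcr4 in WT replicate 2 and the Ackr3 level of WT replicate 2. The part of free RNA in these levels was not tested.

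The 3 receptors were found in the same Lhx6-positive neurons more often than independent detection would give. Of the 6600 cells, 119 had a Cxcr4 UMI, of which 55 also had Ackr3, where 28.4 were expected from the shares of each library. A further comparison with Erbb4 gave 83 of the 119 cells against 48.4 expected. All 3 receptors were seen in 39 cells against 11.6 expected, and 20 of the Cxcr4-positive cells had neither of the other two. Among Cxcr4-positive cells, 54.3%, 51.6%, 40.0% and 34.8% had Ackr3, above the 23.5%, 25.8%, 24.1% and 19.4% of the remaining Lhx6-positive neurons in each library. For Erbb4 the shares were 74.3%, 77.4%, 53.3% and 73.9%, against 36.0% to 46.3% of the remaining cells.

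The ratio of observed to expected cells with both Cxcr4 and Ackr3 was 2.26, 1.96, 1.64 and 1.77 in Lhx6-positive neurons. It was 1.81, 1.65, 1.47 and 2.0 for Cxcr4 with Erbb4 and 1.31, 1.28, 1.32 and 1.41 for Ackr3 with Erbb4. All 12 ratios lay above 1. When the expected number was computed within each cluster, so that differences between clusters drop out, they fell to 1.53, 1.37, 1.08 and 1.03 for Cxcr4 with Ackr3, to 1.21, 1.20, 0.885 and 1.25 for Cxcr4 with Erbb4 and to 1.07 to 1.11 for Ackr3 with Erbb4. For the pairs with Erbb4, most of the excess thus lay between clusters of neurons and not among the cells of a cluster. For Cxcr4 with Ackr3 the ratios within clusters lay near 1 in the WT libraries, at 1.08 and 1.03. In both libraries labelled null they also fell but stayed higher, at 1.53 and 1.37. These ratios rest on 55 cells with both genes over the 4 libraries. Cells of a library are not replicates, and these ratios are descriptions without a test.

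In other neurons, 93 of 4297 cells had Cxcr4, of which 39 had Ackr3 (16.8 expected), 58 Erbb4 (24.3 expected) and 27 both (4.38 expected). The ratios were 2.28, 2.64, 2.09 and 2.48 for Cxcr4 with Ackr3 and 2.25, 2.89, 2.23 and 2.21 for Cxcr4 with Erbb4, and within clusters they were 1.07 to 1.18 and 1.01 to 1.30. In progenitors, 84 cells had Cxcr4, of which 5 had Ackr3 (10.2 expected), 3 Erbb4 (4.65 expected), none both (0.562 expected) and 76 neither, while 55 progenitors had Ackr3 with Erbb4 (47.2 expected). At least 1 of the 3 receptors was seen in 52.3%, 57.6%, 49.6% and 46.7% of Lhx6-positive neurons and in 34.8% to 36.8% of other neurons.

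In other neurons, Erbb4 and its ligand gene Nrg1 were seldom found in the same cell. There, 236 cells had Nrg1, and 12 of these had Erbb4 where 61.9 were expected. The ratios of observed to expected cells were 0.227, 0.132, 0.0821 and 0.368, all below 1, and 0.788, 0.434, 0.678 and 1.11 within clusters. In Lhx6-positive neurons, where Nrg1 was seen in 1.07% to 1.99% of cells, they were 0.664, 0.681, 0.860 and 0.953, and 0.923, 1.11, 0.891 and 1.15 within clusters. Progenitors had 11 cells with both against 8.38 expected. Ackr3 and Nrg1 shared few other neurons as well, with ratios of 0.213, 0.427, 0.105 and 0, and of 0 to 1.12 within clusters.

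**Figure D2:**
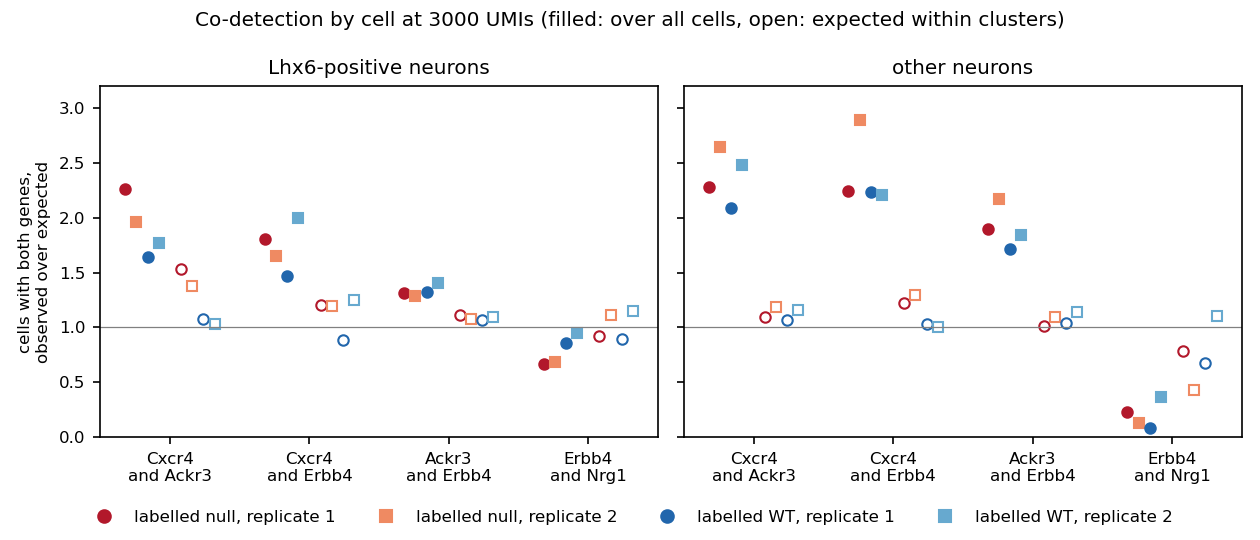
Observed over expected number of cells with both genes of a pair (vertical axis; the grey line at 1 marks independent detection) in Lhx6-positive and other neurons, each cell thinned to 3000 UMIs, with 1 symbol per library. Filled symbols take the expected number over all cells of the group and open symbols within clusters, and the receptor pairs stand above 1 and Erbb4 with Nrg1 below 1 in the filled symbols of all 4 libraries.

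Clusters of cells, built without the 6 genes among the variable genes, gave the receptors different levels among groups of neurons and of progenitors. Cluster 0, led by Epha5 and Maf, had the highest mean level of all 3 receptor genes among the 26 clusters. Its Cxcr4 level was 22.3, 20.8, 38.0 and 33.7 CPM, its Ackr3 level 191 to 205 CPM and its Erbb4 level 425 to 622 CPM. For Ackr3 these values lay above those of every other cluster, with cluster 1 next at a mean of 133 CPM. For Erbb4 they overlapped those of cluster 14 at a mean of 401 CPM, and clusters 1, 6 and 13 followed at 320, 229 and 177 CPM, of which the last pair overlapped. Cluster 14, led by Lgi1 and Htr3a, held 3 or more markers of the caudal eminence, but Lhx6 was seen in 74.7% and Nkx2-1 in 60.9% of its cells, and it is left without a name. For Cxcr4 they overlapped those of the microglia cluster at a mean of 27.6 CPM, in which 24 cells carried vascular markers, and a Bcan and Slc1a3 progenitor cluster came next at 9.25, 18.9, 16.3 and 10.2 CPM. The place of the microglia cluster changed when high doublet scores were kept, for which the cells were clustered anew. The microglia class then had 23, 7, 14 and 22 cells, against 29, 12, 20 and 34 as filtered. Its share of Cxcr4 UMIs (mean of 4 libraries) was 4.79% as filtered and 0.296% with high doublet scores kept. That of Cxcl12 UMIs was 42.5% and 0%. The part of doublets and of the new clustering in this change was not tested. Cluster 13, led by Sst and Nrp2, and cluster 6, with Shh and Lhx8 among its leading genes, held Erbb4 but only 0.216 and 0.452 CPM of Cxcr4.

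The ligand gene Nrg1 was highest in 2 of the 3 clusters with LGE markers (LGE-like), while the third of them, cluster 20, held a mean of 11.7 CPM, below clusters 22, 24 and 10. Cluster 12 held 102, 106, 72.0 and 69.5 CPM, above all other clusters, and cluster 19, also LGE-like, 63.0, 65.7, 48.9 and 51.5 CPM. Erbb4 stood at 9.03 CPM in cluster 12, and Nrg1 at 2.69 CPM in cluster 0. Nrg3 was highest in cluster 24, which carried pallial markers, at a mean of 47.1 CPM, followed by clusters 22, 13 and 10 at 26.6, 26.5 and 18.7 CPM, each of which overlapped its neighbour in this order. Over the 15 neuron clusters, Pearson's r was taken on log2(CPM + 10) of counts summed over the libraries. It was 0.65 for Ackr3 with Erbb4, 0.62 for Cxcr4 with Ackr3, 0.43 for Cxcr4 with Erbb4 and -0.69 for Erbb4 with Nrg1. With Lhx6 it was 0.82 for Erbb4, 0.67 for Ackr3 and -0.58 for Nrg1. These are descriptions over clusters that share libraries and were formed from the same cells.

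**Figure D3:**
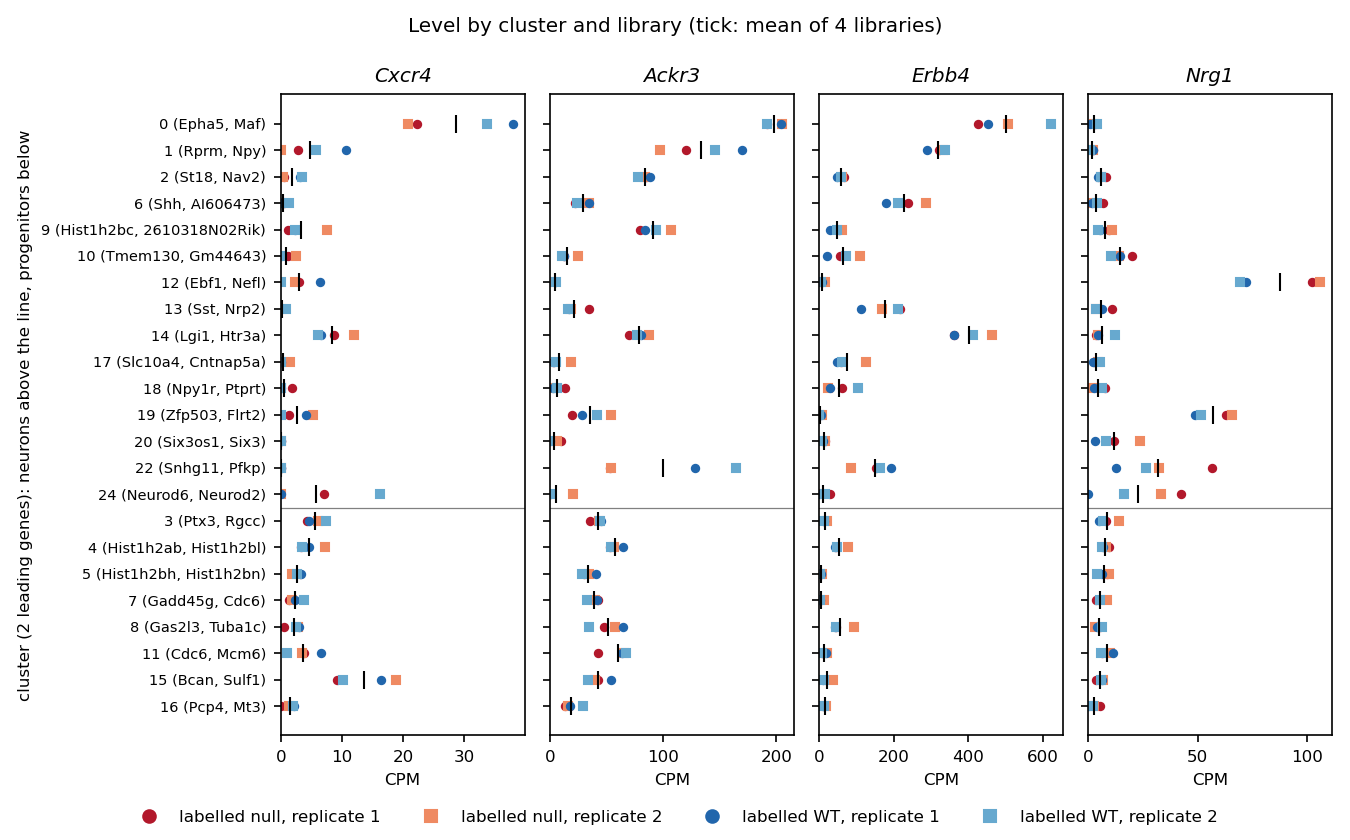
Level of Cxcr4, Ackr3, Erbb4 and Nrg1 in CPM (horizontal axes) in the 15 neuron and 8 progenitor clusters, named by number and leading genes, with 1 point per library and a tick at the mean. Cluster 0 has the highest mean for Cxcr4, Ackr3 and Erbb4, and cluster 12 for Nrg1.

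The genes whose levels followed each of them most closely over the 23 neuron and progenitor clusters, among 9171 genes, were Smoc1 (r = 0.906), Tiparp (0.895) and Zfp516 (0.889) for Ackr3. For Erbb4 they were Dlgap2 (0.904), Neto1 (0.893), Kcnc2 (0.891), Maf (0.874) and Tox (0.860). Nrg1 was followed by Flrt2 (0.843), Zfhx3 (0.802) and Zfhx4 (0.793), and Nrg3 by Lingo2 (0.961), March1 (0.959) and Kcnb2 (0.959). For Cxcr4 the closest were Thbs1 (0.692) and Id3 (0.688).

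Among Lhx6-positive neurons, the receptors differed by subtype marker. Maf, a factor of cortical interneurons, split Cxcr4, which stood at 10.8, 15.7, 17.8 and 12.7 CPM in cells with a Maf UMI and at 2.26, 1.62, 3.12 and 1.22 CPM in cells without. The second values rest on 18, 11, 16 and 7 UMIs and lie below or at the low end of the 2.96 to 5.77 CPM of Cxcr4 in droplets under 100 UMIs. The ratio was 4.76, 9.69, 5.71 and 10.5 for Cxcr4, 2.79 to 3.41 for Ackr3 and 2.19 to 2.81 for Erbb4. Mef2c, a factor linked to parvalbumin interneurons, gave ratios of 5.57 to 6.91 for Cxcr4, 1.34 to 1.95 for Ackr3 and 1.43 to 1.59 for Erbb4. Cells with Sst, the somatostatin gene, held 2.02 to 2.73 times the Cxcr4 level of those without, on 14, 9, 11 and 4 Cxcr4 UMIs, while the Sst-led cluster 13 held 0, 0, 0 and 0.863 CPM. Lhx8, a factor of ventral cholinergic and other projection neurons, went the other way in all 4 libraries, with ratios of 0.143 to 0.290 for Cxcr4, 0.393 to 0.620 for Ackr3 and 0.633 to 0.860 for Erbb4. The markers were chosen with earlier results of these data known, and the ratios carry no test.

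**Figure D4:**
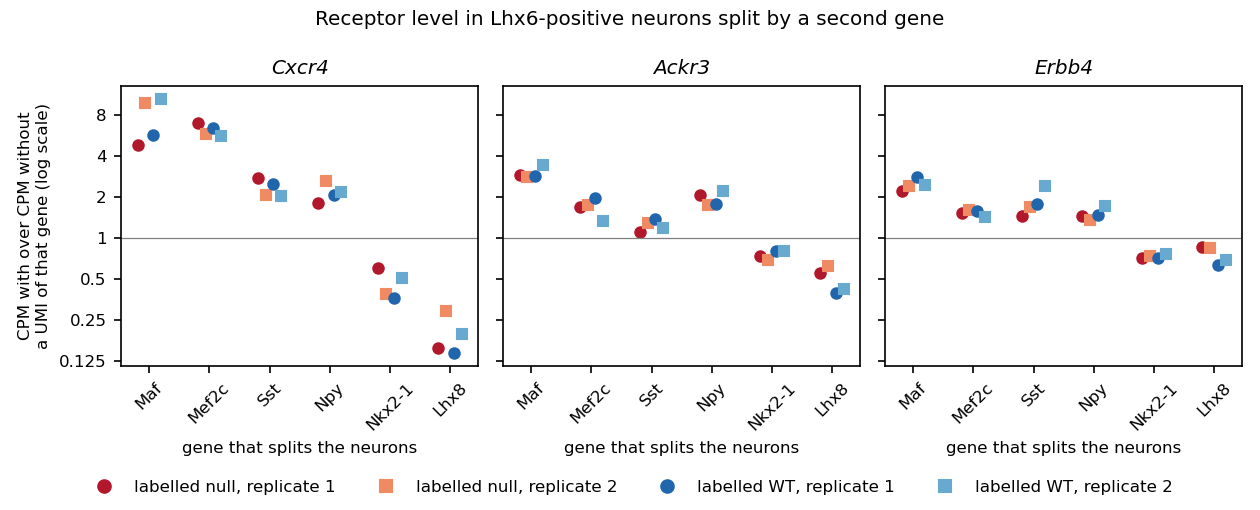
Ratio of the level of each receptor gene in Lhx6-positive neurons with a UMI of a subtype marker to that in Lhx6-positive neurons without it (log axis), with 1 point per library. Maf, Mef2c, Sst and Npy stand above 1 for Cxcr4 and Lhx8 and Nkx2-1 below 1.

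Cells that still held Nkx2-1 carried less of all 3 receptor transcripts. Cxcr4 stood at 4.53, 4.78, 5.05 and 3.14 CPM in Lhx6-positive neurons with a Nkx2-1 UMI and at 7.47, 12.3, 13.8 and 6.17 CPM in those without. The groups did not overlap (log2 difference -1.14, SE 0.18, adjusted p = 4.23e-07), and the values with Nkx2-1 lay within the 2.96 to 5.77 CPM of droplets under 100 UMIs. Ackr3 stood at 81.5, 93.8, 91.8 and 69.0 CPM with Nkx2-1 and at 111, 137, 115 and 86.9 CPM without (log2 difference -0.42, SE 0.05, adjusted p = 6.846e-12), and the groups overlapped between libraries though not within any of them. Erbb4 stood at 197, 267, 170 and 190 CPM with Nkx2-1 and at 275, 365, 240 and 251 CPM without (log2 difference -0.46, SE 0.03, adjusted p = 5.228e-22), with a single overlap, through the 267 CPM of null replicate 2. Nrg1 and Nrg3 differed by -0.33 (SE 0.21, adjusted p = 0.3618) and -0.41 (SE 0.23, adjusted p = 0.2934) and did not pass the test. Nrg3 passed with high doublet scores kept (-0.80, adjusted p = 0.01927) and with splits made on cells that were not thinned, at 1 UMI (-0.80, adjusted p = 0.0162) or at 2 UMIs against 0 (-0.81, adjusted p = 0.02462).

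These were 3 calls among the 5 genes tested, all lower with Nkx2-1, against 11.7% called, in either direction, of the 12028 genes tested in this comparison. DESeq2 called the same number, beside 440 of 20099 genes in all. Without the library as a block the count of genes called fell from 1411 to 63, and all 3 calls were lost (adjusted p = 0.07208 for Cxcr4, 0.1902 for Erbb4 and 0.2512 for Ackr3). Lhx6 itself was higher by 0.25 in the cells with Nkx2-1, and St18 by 1.37. Of the CXCL12 signalling list, 2 of 17 genes tested were higher, among them Rgs16, a regulator that shortens G-protein signalling, by 0.91 (SE 0.16, adjusted p = 3.214e-06), with Gnai2 by 0.16 (adjusted p = 0.0001244). Gnai1 at -0.71 (adjusted p = 1.023e-11) and Gnao1 at -0.35 (adjusted p = 5.706e-11) were lower, and the list's median was -0.03, beside 0.01 over all genes. Of the ERBB list, 1 of 17 was called, Erbin, higher by 0.15 (adjusted p = 0.03675), with a median of -0.07, and DESeq2 called none of this list. Of the other migration receptors, 2 of 12 were higher and 4 lower, with a median of 0.02. Plxna2 was higher by 0.24 (adjusted p = 2.704e-10) and Epha4 by 0.11 (adjusted p = 0.001343), whereas Epha5 stood at -1.0 (adjusted p = 4.82e-57), the semaphorin receptor Nrp2 at -0.70 (adjusted p = 3.049e-18), Cnr1 at -0.64 (adjusted p = 6.146e-07) and Robo2 at -0.12 (adjusted p = 0.01358).

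The ligand genes and the receptor genes were spread over neurons and progenitors. Other neurons made up 23.6% of the cells and carried 53.0%, 48.2%, 48.6% and 43.4% of the Nrg1 UMIs (mean 48.3% ± 3.91, SD, n = 4). Lhx6-positive neurons carried a mean of 16.7% of Nrg1 and progenitors 34.8%. Within other neurons, cells with the LGE factor Isl1 held 70.9, 83.1, 43.1 and 43.2 CPM of Nrg1. Nrg3 UMIs fell to other neurons with a mean of 44.4%, to Lhx6-positive neurons with 38.7% and to progenitors with 16.2%. Lhx6-positive neurons, 36.4% of the cells, carried a mean of 62.1% of Erbb4, 44.1% of Ackr3 and 34.2% of Cxcr4 UMIs. Other neurons carried 27.3% of Erbb4, 21.3% of Ackr3 and 24.4% of Cxcr4, and progenitors, 38.5% of the cells, carried 10.3%, 34.3% and 36.2%. These shares are of full-depth counts, and progenitors were deeper than their share of cells. They held 26193230, 19846243, 15256906 and 12564280 UMIs, beside 23301445, 19688231, 15339495 and 13633871 in all neurons. For Cxcr4 the order turned in thinned cells, with 40.0% in Lhx6-positive neurons and 25.4% in progenitors. For Ackr3 it turned in cells of at least 5000 UMIs, with 39.8% and 40.8%.

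**Figure D5:**
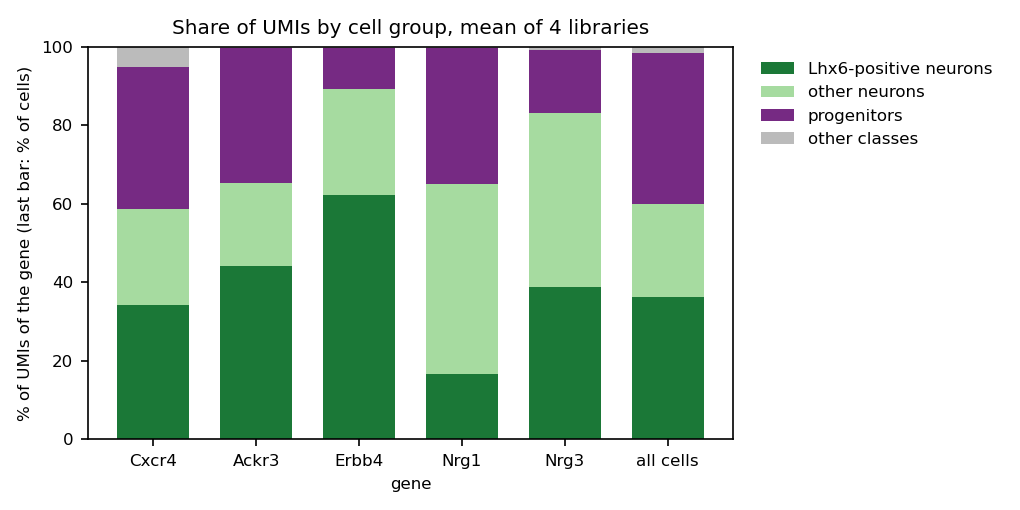
Share of the UMIs of Cxcr4, Ackr3, Erbb4, Nrg1 and Nrg3 in percent (vertical axis) by cell group, as stacked bars of the mean over the 4 libraries, with the share of cells in the last bar. Lhx6-positive neurons take 62.1% of the Erbb4 bar and 16.7% of the Nrg1 bar, beside 36.4% of the cells. UMIs are counted at full depth, which differs between the groups.

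Cxcl12 was close to undetected in neurons and progenitors, with 48 UMIs in all cells kept. Before the filters on mitochondrial share and doublets, barcodes of at least 3000 UMIs held 15, 22, 14 and 31 UMIs of it, and barcodes of 100 to 1000 UMIs, not used as cells, 26, 31, 51 and 58. With the cells that carried vascular markers set apart, neurons held 8 of these UMIs, in 7 of 10893 cells, and progenitors 13, in 12 of 7082 cells. In Lhx6-positive neurons of null replicate 1 and WT replicate 1 no UMI was found, which allows a level of up to 0.217 and 0.353 CPM by counting error alone. The rest came from 36 cells that carried at least 3 endothelial, mural or meningeal markers, a rule chosen after the values were seen. These cells held 27 of the 48 UMIs, in 5 cells, with 18 of them in null replicate 2 and 14 in a single cell there, or 0, 66.3, 31.8 and 17.2 CPM. They also held 36 Cxcr4 UMIs in 11 cells, or 44.3 CPM (95% Poisson interval 31.0 to 61.3), and 22 Ackr3 UMIs in 11 cells. The interval is for counting error of the pooled libraries alone and leaves out the spread between cells and libraries. Microglia without such markers had no Cxcl12 UMI in 71 cells. With high doublet scores kept and the cells clustered anew, progenitor clusters carried a mean of 86.6% of the Cxcl12 UMIs, against 38.4% as filtered. The microglia class, then smaller, carried 0%, against 42.5% as filtered. No cluster of endothelial, mural, meningeal, Cajal-Retzius or choroid cells was found.

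Libraries labelled null and WT were compared in neurons, progenitors and Lhx6-positive neurons. None of the 5 genes tested passed in any of these cell groups, Cxcl12 being too low to test. In neurons, 0.0439% of 13679 genes were called, in progenitors 0.585% of 13504 and in Lhx6-positive neurons 0.595% of 12783. In neurons, Erbb4 differed between null and WT by 0.18 on the log2 scale (SE 0.14, adjusted p = 0.5274), Ackr3 by 0.02 (SE 0.16, adjusted p = 0.9516), Cxcr4 by -0.03 (SE 0.27, adjusted p = 0.9619) and Nrg3 by -0.09 (SE 0.29, adjusted p = 0.9). In Lhx6-positive neurons the differences were 0.24 for Erbb4 (SE 0.14), 0.07 for Ackr3 (SE 0.15), -0.08 for Cxcr4 (SE 0.29), 0.36 for Nrg1 (SE 0.22) and -0.25 for Nrg3 (SE 0.29). In progenitors they were 0.32 for Erbb4 (SE 0.21), -0.28 for Ackr3 (SE 0.13), -0.27 for Cxcr4 (SE 0.23), 0.30 for Nrg1 (SE 0.17) and 0.07 for Nrg3 (SE 0.36). Among these tests, only Nrg1 in neurons had an unadjusted p under 0.05. Without null replicate 2, the differences in neurons were 0.02 for Erbb4, -0.05 for Ackr3, -0.23 for Cxcr4 and -0.14 for Nrg3. In Lhx6-positive neurons they were then 0.06 for Erbb4, -0.01 for Ackr3, -0.29 for Cxcr4, 0.43 for Nrg1 and -0.18 for Nrg3, and in progenitors -0.06 for Erbb4, -0.31 for Ackr3, -0.52 for Cxcr4, 0.20 for Nrg1 and -0.15 for Nrg3. None of these passed the test, although the share of all genes called was 2.4% in neurons, 9.55% in Lhx6-positive neurons and 11.2% in progenitors. DESeq2 called none of the genes in the 3 comparisons, with 4, 5 and 4 adjusted p-values not given by it.

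For Cxcr4, equal numbers of cells per cluster gave -0.98 in neurons (adjusted p = 0.1189) and -0.64 in Lhx6-positive neurons (adjusted p = 0.3787). Cxcr4 was lower in both libraries labelled null than in both labelled WT in the 3 largest neuron clusters, with 22.3 and 20.8 against 38.0 and 33.7 CPM in cluster 0, 2.76 and 0 against 10.7 and 5.75 CPM in cluster 1 and 0.597 and 0.450 against 3.15 and 3.49 CPM in cluster 2. The next largest neuron clusters did not share this order. Values were 0.530 and 0 against 0 and 1.28 CPM in cluster 6 and 1.11 and 7.54 against 2.40 and 2.32 CPM in cluster 9. In cluster 10 they were 1.22 and 2.45 against 0 and 0 CPM. Those of cluster 2 lay within or below the range of droplets under 100 UMIs. In these, Cxcr4 was also lower in both libraries labelled null, on 6 and 12 against 9 and 11 UMIs. These cluster values were not tested.

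Nrg1 stood at 17.6 and 16.7 CPM in neurons of the libraries labelled null and at 10.2 and 9.32 CPM in those labelled WT, without overlap. The log2 difference was 0.67 (SE 0.15, unadjusted p = 0.001453) but did not pass adjustment (adjusted p = 0.1109). With 1 null library left, which is taken to vary as the WT libraries do, it passed without null replicate 1 (0.59, adjusted p = 0.02325) and without null replicate 2 (0.76, adjusted p = 0.03244), where 19.5% and 2.4% of all genes were called. It also passed when scaled by library totals (0.82, adjusted p = 0.01649) and when every gene with a count was tested (0.68, adjusted p = 0.003456). It did not pass without WT replicate 1 (adjusted p = 0.1501) or WT replicate 2 (adjusted p = 0.4501). When every neuron cluster was given the same number of cells in each library, the difference was 0.33 (adjusted p = 0.3877). Among other neurons Nrg1 was 33.6 and 35.9 CPM against 17.6 and 15.4 CPM, and in Lhx6-positive neurons 6.67 and 6.47 against 4.23 and 5.10.

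For Erbb4, not called with all 4 libraries, the outcome changed when null replicate 1 was left out. Without null replicate 1 it was called in neurons (0.35, adjusted p = 0.02018), in Lhx6-positive neurons (0.41, adjusted p = 2.372e-05) and in progenitors (0.64, adjusted p = 0.00014), where null replicate 2, the library with the highest St18 level, is the only one labelled null and is taken to vary as much as the WT libraries do. The shares of all genes called in these fits were 19.5% in neurons, 25.1% in Lhx6-positive neurons and 30.6% in progenitors. With equal numbers of cells per cluster the difference in neurons was -0.03. Cluster 0, the cluster highest in Erbb4, made up 20.7%, 32.9%, 12.3% and 7.36% of neurons in the 4 libraries. The part of single libraries and of the mix of clusters in the Erbb4 differences was not tested.

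None of the list genes was called between null and WT in any of the 3 cell groups by edgeR. In neurons 17 genes of the CXCL12 signalling list were tested (median 0.02), 19 of the ERBB list (median 0.11) and 14 of the other migration receptors (median 0.12), beside a median of 0.00 over all genes. An unadjusted p under 0.05 was reached by 2, 1 and 4 of them, beside 16.8% of all genes, and DESeq2 called 1, 1 and 3 of them and 321 genes in all. In progenitors the counts were 3, 3 and 3, beside 17.1% of all genes (DESeq2 1, 0 and 0 of 322 genes called), and in Lhx6-positive neurons 2, 2 and 5, beside 17.8% (DESeq2 1, 1 and 2 of 263).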

How the data were processed

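The authors ran Cell Ranger on the reads and deposited, per library, the unfiltered matrix with its UMI counts by gene and barcode. Those deposited counts were neither normalized nor filtered for cells. The submitters' processing notes name Cell Ranger 5.0.1 and GRCm38, and the file headers Cell Ranger 4. The libraries held 92984713 and 89094919 UMIs (null) and 72640295 and 70991150 UMIs (WT). Replicates were numbered in accession order, since the labels carry no numbers. Cell type names come from marker lists, and the 6 genes, markers and gene lists were chosen with earlier results of these data known.

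A barcode was kept as a cell from 3000 UMIs and 200 genes upward, with mitochondrial genes at no more than 10% of its UMIs. The cells with the highest Scrublet scores (scanpy 1.11.5) were left out as doublets at 0.8% per 1000 cells, which removed 352, 120, 163 and 129 cells, since Scrublet's own threshold called under 0.05% of cells in each library. Cells were clustered in Seurat 5.3.0 (R 4.3.3) on 2000 variable genes less the genes described, with the cell cycle difference regressed out, 49 principal components and a Louvain resolution of 1.4. Neurons and progenitors were called by the larger mean of the standardized markers, and other names needed 3 markers in 25% of the cells. Co-detection and shares of cells with a UMI used cells thinned to 3000 UMIs. The expected number of cells with both genes is the product of their shares in a library.

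Counts were summed per library and group and tested with edgeR 4.0.16 (TMM, filterByExpr, quasi-likelihood F-test, two-sided, Benjamini-Hochberg, adjusted p of 0.05). Libraries and not cells were the replicates. The library was a block where both groups came from the same libraries. Lhx6 and Nkx2-1 were not tested where they made the split. Differences are log2 fold changes, and SE is the difference divided by the square root of F. CPM values are UMIs per 1000000 UMIs of the group. Intervals are exact Poisson intervals at 95%, and a count of 0 was read as under 3 counts, for counting error only. Up to 4 list genes per direction with the smallest adjusted p were named. Closest genes by cluster were ranked by r of log2(CPM + 10). The tests were checked on simulated counts. DESeq2 1.42.0, other scalings, filters, thresholds and left-out libraries were the alternatives. Promoters came from RefSeq (GRCm38.p6) and positions from GENCODE M21. Figures used matplotlib 3.10.9 in Python 3.11.15.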

Additional observations from a re-analysis of the deposited data

How the results depend on the processing

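No paired analysis was possible between null and WT because the labels carry no replicate numbers. Where both groups came from the same libraries, leaving out the library as a replicate block moved the count of genes called from 3814 to 866 between Lhx6-positive and other neurons and from 1411 to 63 between cells with and without Nkx2-1. With DESeq2 these counts were 1719 and 440, and with sums of thinned cells 2365 and 765.

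Between null and WT the counts of genes called moved by over 1.5 times in 10 of 13 settings in neurons, 9 of 12 in progenitors and 8 of 15 in Lhx6-positive neurons, and the cause was not tested. In neurons 6 genes were called, with 10 under DESeq2's size factors in edgeR, 362 scaled by library totals, 700 with every gene tested, 321 with DESeq2, 1 in male-classed cells, 71 with equal cells per cluster and from 51 (without WT replicate 2) to 2710 (without null replicate 1). In progenitors 79 were called, with 479 by library totals, 809 with every gene, 322 with DESeq2, 130 with doublets kept, 39 in thinned cells, 11 in cells of at least 5000 UMIs, 20 in male-classed cells and from 62 (without WT replicate 2) to 4183 (without null replicate 1). In Lhx6-positive neurons 76 were called, with 251 by library totals, 0 with every gene tested (2011 at an unadjusted p under 0.05), 263 with DESeq2, 6 at 5000 UMIs, 138 with a split at 2 Lhx6 UMIs and from 41 (without WT replicate 2) to 3183 (without null replicate 1).

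The differences that changed sign were not called in the fits reported above. Of these, Erbb4 in neurons and in progenitors was called without null replicate 1. In neurons, equal cells per cluster gave -0.03 for Erbb4, -0.18 for Ackr3 and 0.18 for Nrg3, library totals 0.13 for Cxcr4 and 0.06 for Nrg3, male-classed cells 0.06 and 5000 UMIs 0.19 for Cxcr4, and left-out libraries -0.19 to 0.27 for Ackr3, -0.40 to 0.48 for Cxcr4 and -0.51 to 0.48 for Nrg3. In progenitors, male-classed cells gave -0.60 for Nrg3, and left-out libraries -0.06 to 0.64 for Erbb4 and -0.15 to 0.28 for Nrg3. In Lhx6-positive neurons, equal cells gave -0.19 for Ackr3 and -0.11 for Nrg1, library totals 0.06, 5000 UMIs 0.18 and splits at 1 full-depth UMI 0.11 and at 2 UMIs 0.38 for Cxcr4, male-classed cells 0.05 for Nrg3, and left-out libraries -0.13 to 0.31 for Ackr3, -0.50 to 0.53 for Cxcr4 and -0.63 to 0.25 for Nrg3. Between Lhx6-positive and other neurons Cxcr4 stood at 0.06 at 5000 UMIs and at 0.17 and 0.07 with the other splits, and between cells with and without Nkx2-1, Nrg1 at 0.13 with a split at 2 UMIs, 0.27 in thinned cells and -0.71 to 0.13 without 1 library. Library totals moved the median log2 difference of all genes between null and WT to 0.15 in neurons, 0.19 in progenitors and 0.14 in Lhx6-positive neurons.

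Observed over expected cells for Ackr3 with Erbb4 in Lhx6-positive neurons were 1.22 without thinning and 1.23 at 5000 UMIs. In other neurons 5000 UMIs gave 3.42 for Cxcr4 with Ackr3, 2.99 for Cxcr4 with Erbb4 and 2.37 for Ackr3 with Erbb4, and another random thinning, added after seeing the data, gave 2.70 for Cxcr4 with Ackr3. The share of Nrg3 UMIs in other neurons was 49% in thinned cells and 40.6% with doublets kept, and that of Ackr3 in Lhx6-positive neurons 50.8% in thinned cells. With 119 Cxcr4-positive cells among Lhx6-positive neurons, 93 among other neurons and 84 among progenitors, and 48 Cxcl12 UMIs in all cells kept, depth limits what can be said of these 2 genes.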
